A study of Mus musculus with 18 samples.

Results

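The synaptic vesicle and release machinery was described as 42 genes, chosen by name and by what their proteins are known to do. The choice was made with earlier results of these data known. All 42 have at least 1 probe set of their own on the array, out of 18193 genes measured, and together they have 121 probe sets. They fall into 6 synaptotagmins, 3 synapsins, 6 vesicle membrane proteins, 9 SNARE proteins, 3 Rab3 GTPases, 7 active zone, priming and clamp proteins, 4 proteins of vesicle retrieval, 3 of SNARE disassembly and 1 presynaptic adhesion gene, Nrxn3. The question was at which stage of motor neuron differentiation in culture these genes change, which members rise or fall, and which do not pass the test.

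The 18 arrays came from HBG3 mouse ES cells, a single line, differentiated as aggregates toward spinal motor neurons. Undifferentiated ES cells (day 0) gave 3 arrays and day 2 embryoid bodies 4, with a further 2 from day 2 embryoid bodies after 8 h of retinoic acid (RA). Neural precursors (day 3), progenitor motor neurons (day 4) and postmitotic motor neurons (day 7) gave 3 arrays each. From day 2 the cultures of the later stages received RA and a hedgehog agonist. Whether the agonist was also present in the 8 h RA cultures is not settled by the labels. RNA was taken from ES cells or whole embryoid bodies, and no sort is described, so every array holds a mixture of cells. The methods describe 3 biological replicates for each time point, whereas the labels give 4 arrays at day 2 and 2 after RA.

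Values are log2 signals per probe set, and each gene was read on its brightest probe set, the one with the highest mean over all arrays. The background level was set at 4 on that log2 scale. To pass, a gene had to change 2-fold or more with its adjusted p below 0.01 (limma, Benjamini-Hochberg over 45037 probe sets), and a gene that passed is called. No filter on low values was used. Of the 42 members, 40 reached the background level on 2 or more arrays, and the others were Sv2c and Unc13a. A fold against a stage that lay wholly under the background level is given as "at least", with the mean of that stage set to the level. Signals of different probe sets are not on a common scale, so levels were compared between arrays and not between genes.

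The day 2 arrays formed 2 pairs. Over all probe sets, replicates 1 and 2 correlated at r = 0.992 and replicates 3 and 4 at 0.991, while r was 0.967 to 0.977 across the pairs. Replicate 1 of the 8 h RA group correlated at 0.994 with day 2 replicate 3 and at 0.988 with the other RA array. Results that rest on day 2 are therefore given for either pair as well. The labelled stages were read against their markers. At day 0 all 7 pluripotency markers lay at or above the background level on every array, and at day 7 all 12 pan-neuronal markers did. Of 7 motor neuron markers, 4 lay at or above it on every day 7 array. Isl1, a motor neuron LIM homeodomain factor, read 11.43, 11.51 and 11.79 at day 7, and Mnx1, which encodes HB9, read 5.67, 6.84 and 7.44. Chat, the enzyme that makes acetylcholine, read 2.31, 2.88 and 2.24 at day 7 and was thus under the background level on each of these arrays.

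A neuron releases transmitter by fusing a filled vesicle with its membrane at the active zone. A vesicle SNARE (Vamp) pairs with plasma membrane SNAREs (Snap25, syntaxin), complexins hold the assembled SNAREs, and a synaptotagmin senses calcium and triggers fusion. Synapsins tether the reserve vesicles, Rab3 and Rims proteins dock them, NSF and the SNAP adaptors take spent SNARE complexes apart, and dynamin, amphiphysin, synaptojanin and Snap91 bring membrane back into vesicles. Non-neuronal cells run the same reaction for general secretion with relatives such as Snap23, Stx3, Stx4a, Vamp3 and Sypl. The transcriptional repressor REST binds RE1 elements near many neuronal genes, synapsin I among them, and is known for keeping them low in cells that are not neurons.

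From day 4 to day 7, 30 of the 42 members rose and 12 did not pass the test. The calls took in all 3 synapsins, all 3 Rab3 genes and all 4 retrieval genes, 5 of 6 synaptotagmins, 4 of 6 vesicle membrane proteins, 4 of 9 SNARE genes, 4 of 7 active zone genes, 2 of 3 disassembly genes and Nrxn3. Among all genes, 8.81% were called higher in that comparison and 6.58% lower. The median log2 difference was 2.64 over the members and 0.00 over all genes. No member was called lower by limma, and 2 members were lower at an unadjusted p under 0.05. Since the RNA came from whole embryoid bodies, more cells of a type and more RNA per cell cannot be told apart here. In a fit of the 6 arrays of these 2 stages alone the count of calls was 17. That count and the counts at an unadjusted p under 0.05 were not made over all genes.

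Against ES cells at day 0, 32 members were higher at day 7, 1 was lower and 9 did not pass. Of all genes, 14.3% were called higher and 13.9% lower in that comparison. The single member that was lower was Stx3. The comparisons of day 7 with day 4 and with day 0 share the day 7 arrays. Per array, the median signal over the 42 members lay between 5.32 and 6.43 on the 15 earlier arrays and between 8.94 and 9.42 on the day 7 arrays. For 33 members the largest step between consecutive stages was that from day 4 to day 7, and 33 members had their highest stage mean at day 7. These counts were not made over all genes. The step from day 4 to day 7 spans the most days. It also had the largest share of all genes called among consecutive steps (8.81% higher, 6.58% lower).

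**Figure D1:**
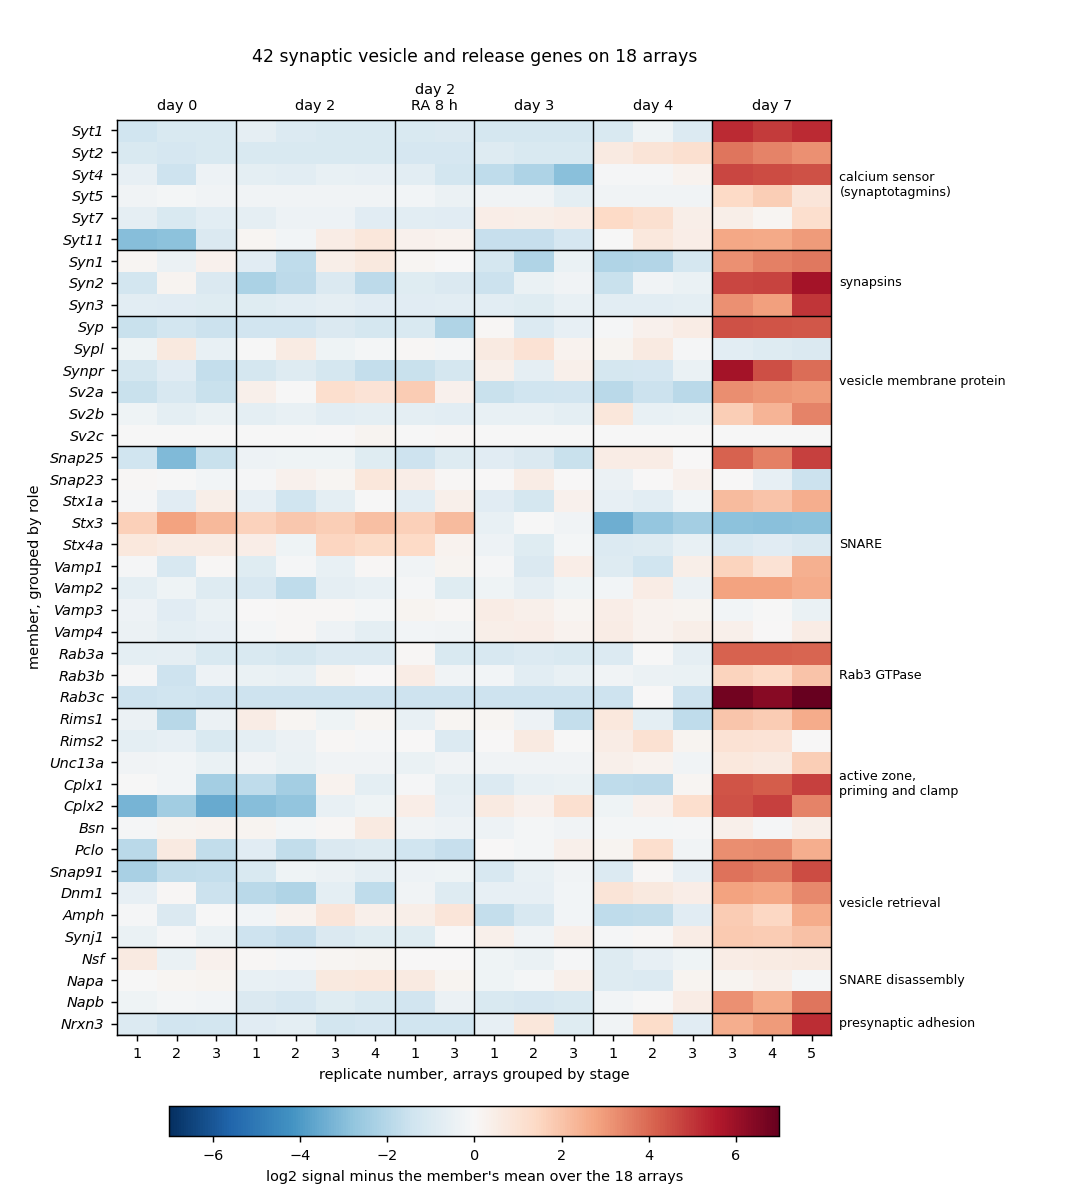
Log2 signal of the 42 members (rows, grouped by role) on the 18 arrays (columns, grouped by stage), each member relative to its own mean over the arrays, with red above and blue below that mean. The day 7 columns are red for most rows, Stx3 runs from red at day 0 to blue at day 4 and day 7, and Sv2c stays at one low value.

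The synaptotagmins include the calcium sensors of release. Syt1, the main sensor for fast release, read 3.12, 3.86 and 3.25 at day 4 and 9.40, 9.10 and 9.41 at day 7. On the 15 arrays before day 7 it read 2.78 to 3.86, so all of those lay under the background level. The rise was at least 39.5-fold (log2 difference 5.89 ± 0.17 (SE), adjusted p = 5.5e-11). Syt4, an atypical synaptotagmin that binds calcium poorly, read 6.47, 6.47 and 6.78 at day 4 and 11.24, 11.09 and 10.99 at day 7, a rise of 23.2-fold (log2 difference 4.53 ± 0.30 (SE), adjusted p = 1.9e-07). Its day 7 arrays lay above all earlier ones.

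Syt2, the fast sensor of motor nerve terminals and hindbrain, was called in both of the last steps. It read 2.52, 2.31 and 2.31 at day 3, 4.00, 4.31 and 4.52 at day 4 and 7.17, 6.89 and 6.59 at day 7. It was called higher at day 4 than day 3, by at least 1.21-fold (log2 difference 1.90 ± 0.13 (SE), adjusted p = 7.2e-06), and that call ended with values raised to the background level and with averaged probe sets. From day 4 to day 7 it rose by 6.08-fold (log2 difference 2.60 ± 0.13 (SE), adjusted p = 1.6e-08). Its day 3 arrays were under the background level and its day 4 arrays at or just above it, and its other 2 probe sets lay near the lowest values of the array throughout. Syt11, a relative of Syt4, read 8.45, 9.22 and 8.98 at day 4 and 11.17, 11.14 and 11.46 at day 7 (log2 difference 2.38 ± 0.44 (SE), adjusted p = 0.0015).

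Syt5 passed close to the background level. It read 2.69, 2.69 and 2.69 at day 4 and 4.29, 4.62 and 3.79 at day 7, so 1 of the 3 day 7 arrays was still under the background level, and the rise was at least 1.18-fold (log2 difference 1.54 ± 0.17 (SE), adjusted p = 1.8e-05). With values raised to the background level the call ended, at an adjusted p of 0.064. Syt7, a slower and higher-affinity calcium sensor, did not pass from day 4 to day 7, with 9.44, 9.13 and 8.42 and then 8.41, 8.15 and 9.23 (log2 difference -0.40 ± 0.28 (SE), adjusted p = 0.42). It had its highest stage mean at day 4, and its day 7 arrays were above those of day 0 by 2.60-fold (adjusted p = 0.0016). One dim probe set of Syt7 went from 2.41, 2.41 and 2.51 at day 4 to 3.20, 3.06 and 4.22 at day 7 and passed (adjusted p = 0.0047), mostly under the background level.

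All 3 synapsins, which tie vesicles to actin and to one another, rose. Syn1 read 6.28, 5.72 and 6.45 at day 0, 4.02, 4.11 and 4.89 at day 4 and 9.31, 9.67 and 9.83 at day 7. It was therefore lower on the 3 day 4 arrays than on any day 0 array, and the rise from day 4 was 38.4-fold (log2 difference 5.26 ± 0.57 (SE), adjusted p = 1.9e-05) against a log2 difference of 3.45 from day 0. Syn2 read 3.33, 4.62 and 4.41 at day 4 and 9.58, 9.62 and 10.73 at day 7, a rise of 57.8-fold (log2 difference 5.85 ± 0.50 (SE), adjusted p = 2.3e-06). Syn3 lay under the background level on all arrays before day 7 and then read 6.27, 5.98 and 8.10, a rise of at least 6.89-fold (log2 difference 4.40 ± 0.38 (SE), adjusted p = 2.3e-06). The day 7 replicate 5 array was the highest of its stage for each of the 3 synapsins.

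Promoters are shown for 4 members because the synapsin I promoter is a classical place to look for RE1, and because the other 3 cover a member that did not pass (Napa), a neuronal syntaxin that rose (Stx1a) and the syntaxin that fell (Stx3). The sequences are RefSeq's for build GRCm38.p6, 250 bases up to the start of transcription, 5′ to 3′ on the strand of the gene, with matches to the 3 motifs searched in capitals.
Syn1, chrX:20920919-20921168, minus strand: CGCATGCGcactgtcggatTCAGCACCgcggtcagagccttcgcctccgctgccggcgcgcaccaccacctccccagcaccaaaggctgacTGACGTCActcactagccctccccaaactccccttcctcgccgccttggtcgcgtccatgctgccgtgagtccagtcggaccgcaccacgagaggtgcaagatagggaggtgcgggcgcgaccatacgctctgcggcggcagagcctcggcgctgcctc
Napa, chr7:16098330-16098579, plus strand: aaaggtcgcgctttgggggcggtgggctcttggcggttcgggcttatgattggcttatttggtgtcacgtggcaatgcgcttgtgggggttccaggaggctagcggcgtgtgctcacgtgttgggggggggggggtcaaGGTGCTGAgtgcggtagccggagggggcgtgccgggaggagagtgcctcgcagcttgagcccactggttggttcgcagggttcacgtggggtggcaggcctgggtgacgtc
Stx1a, chr5:135023232-135023481, plus strand: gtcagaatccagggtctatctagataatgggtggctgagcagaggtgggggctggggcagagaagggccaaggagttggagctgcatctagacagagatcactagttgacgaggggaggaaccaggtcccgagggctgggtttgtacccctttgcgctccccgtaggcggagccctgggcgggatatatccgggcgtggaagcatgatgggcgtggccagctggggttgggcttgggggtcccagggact
Stx3, chr19:11819404-11819653, minus strand: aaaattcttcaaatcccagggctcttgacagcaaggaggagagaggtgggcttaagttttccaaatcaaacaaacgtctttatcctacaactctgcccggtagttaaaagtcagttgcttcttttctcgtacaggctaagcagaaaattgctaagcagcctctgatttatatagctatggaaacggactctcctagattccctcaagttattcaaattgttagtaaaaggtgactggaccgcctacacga

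The motifs were the left part of RE1 (TCAGCACC), the cyclic AMP response element CRE (TGACGTCA) and the NRF1 motif (CGCATGCG), searched on both strands in windows from 250 bases before to 50 bases after the start. Of the 42 members, 34 had 47 windows in the table. Syt4, Syt5, Syt7, Syn3, Snap25, Vamp2, Vamp3 and Rims2 had none. The Syn1 window held all 3 motifs, at positions -250 to -243 (NRF1), -231 to -224 (RE1 left part) and -159 to -152 (CRE) from the start. The Napa window held the reverse of the RE1 left part (GGTGCTGA) at -111 to -104 and a CRE from -7 to 1, whose last base lies just beyond the stretch shown. Neither shown stretch of Stx1a or Stx3 held a match. The RE1 left part was found in 6.38% of the members' windows (Syn1, Napa, Unc13a) and in 1.65% of all 32851 windows. CRE was in 4.26% (Syn1, Napa) and 1.79%, and the NRF1 letters in 6.38% (Syn1, Bsn, Snap23) and 1.87%. These are matches of letters, 3 windows or fewer for each motif. Of the genes with the RE1 letters, Syn1 rose from day 4 to day 7 while Napa and Unc13a did not pass. The median GC content was 61.3% in the members' windows and 52.7% in all windows.

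Among the vesicle membrane proteins, 4 of 6 rose, and Sypl and Sv2c did not pass. Syp, synaptophysin, read 4.73, 5.005 and 4.83 at day 0, 6.21, 6.62 and 6.82 at day 4 and 10.78, 10.72 and 10.63 at day 7. The 3 day 7 arrays lay within 0.2 of each other and above all earlier ones, and the rise from day 4 was 17.9-fold (log2 difference 4.16 ± 0.27 (SE), adjusted p = 1.7e-07). Synpr, synaptoporin, read 2.80, 2.85 and 3.57 at day 4 and 9.82, 8.55 and 7.95 at day 7, a rise of at least 27.4-fold (log2 difference 5.70 ± 0.44 (SE), adjusted p = 7.8e-07). Its day 7 arrays were well apart, with replicate 3 the highest and replicate 5 the lowest. Sypl, the family member of non-neuronal cells, read 10.69, 11.16 and 10.40 at day 4 and 9.76, 9.61 and 9.50 at day 7. The day 7 arrays lay below those of day 4, and the difference did not pass the adjusted p (log2 difference -1.13 ± 0.32 (SE), adjusted p = 0.022). Another 3 of its 7 probe sets were called lower, with log2 differences of -1.30, -1.66 and -1.58, and the mean of all its probe sets was also called lower (-1.08, adjusted p = 0.00047).

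Sv2a, the broadly expressed SV2 glycoprotein of synaptic vesicles, was raised at day 2 and again at day 7. It read 3.20, 3.65 and 3.23 at day 0, 5.16, 4.78, 5.97 and 5.74 at day 2, 3.20, 3.39 and 3.43 at day 3, 2.88, 3.28 and 2.88 at day 4 and 8.02, 7.89 and 7.74 at day 7. It was thus above the background level on all day 2 arrays, under it on every day 3 and day 4 array, and highest at day 7. The rise from day 4 was at least 14.8-fold (log2 difference 4.87 ± 0.34 (SE), adjusted p = 3.4e-07). Sv2b read 3.77, 2.45 and 2.50 at day 4 and 4.70, 5.34 and 6.42 at day 7, a rise of at least 2.81-fold (log2 difference 2.58 ± 0.38 (SE), adjusted p = 0.00028). Sv2c lay under the background level on all 18 arrays and gave no fold.

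**Figure D2:**
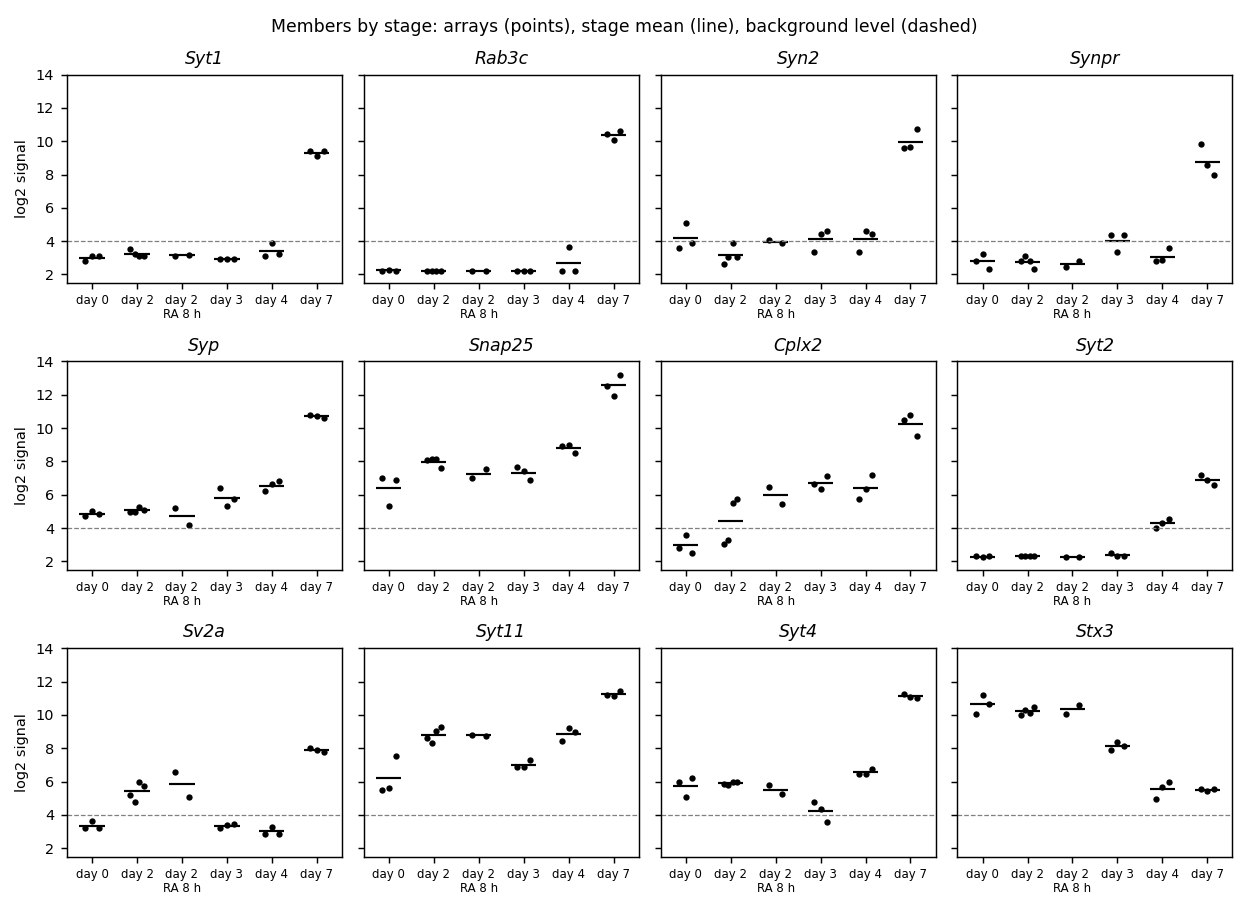
Log2 signal of 12 members by stage, with points for arrays, lines for stage means and a dashed line at the background level of 4. Syt1, Rab3c and Synpr move from near or under the dashed line to between 7.95 and 10.63 at day 7, Syt11 and Syt4 lie lower at day 3 than at day 2 or day 4, and Stx3 falls between day 2 and day 4.

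Of the 9 SNARE genes, the 4 used mainly by neurons rose. The other 5, Snap23, Vamp3, Vamp4, Stx4a and Stx3, did not pass. Snap25, the plasma membrane SNARE of neurons, read 7.03, 5.33 and 6.85 at day 0, 8.93, 8.96 and 8.48 at day 4 and 12.55, 11.95 and 13.20 at day 7. It was at or above the background level on every array, its day 4 arrays were above all day 0 arrays, and the rise from day 4 was 13.7-fold (log2 difference 3.78 ± 0.42 (SE), adjusted p = 2.3e-05). Stx1a, its neuronal syntaxin partner, read 8.33, 8.16 and 8.72 at day 4 and 11.16, 10.93 and 11.48 at day 7 (6.90-fold, log2 difference 2.79 ± 0.44 (SE), adjusted p = 0.00049). The other Stx1a probe set was also called higher. It lay under the background level on all 15 earlier arrays and read 6.14, 5.09 and 5.64 at day 7. Vamp2, synaptobrevin 2, read 8.33, 9.02 and 8.12 at day 4 and 11.32, 11.34 and 11.12 at day 7 (6.83-fold, log2 difference 2.77 ± 0.33 (SE), adjusted p = 4.5e-05). For each of these 3 genes the day 7 arrays lay above all 15 earlier arrays. Vamp1, the synaptobrevin of spinal cord and motor terminals, read 3.75, 3.26 and 5.08 at day 4 and 6.21, 5.71 and 7.19 at day 7 (log2 difference 2.34 ± 0.54 (SE), adjusted p = 0.0071). That call ended without day 4 replicate 1 or 2 and without day 7 replicate 3 or 5 (adjusted p up to 0.039).

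Snap23, the relative of Snap25 outside neurons, read 8.49, 8.95 and 9.18 at day 4 and 8.92, 8.33 and 7.39 at day 7, and the groups overlapped (log2 difference -0.66 ± 0.33 (SE), adjusted p = 0.24). One of its 3 probe sets was called lower, from 8.14, 8.34 and 8.47 at day 4 to 7.28, 6.33 and 6.69 at day 7. Vamp3, cellubrevin, read 12.90, 12.65 and 12.63 at day 4 and 12.24, 12.39 and 11.93 at day 7 (log2 difference -0.54 ± 0.14 (SE), adjusted p = 0.013). It read 11.64 to 12.91 on the earlier arrays, and its change was under 2-fold. Vamp4, a SNARE of the trans-Golgi and endosomes, read 9.48, 9.201 and 9.36 and 9.27, 8.95 and 9.44 (log2 difference -0.13 ± 0.17 (SE), adjusted p = 0.84). Stx4a, a plasma membrane syntaxin of many tissues, read 8.00, 7.80 and 7.84 at day 0, 6.27, 6.33 and 6.72 at day 4 and 6.29, 6.45 and 6.26 at day 7. Its day 7 arrays were below all of its day 0 arrays, at a log2 difference of -1.55 that just missed the threshold (adjusted p = 0.01 after rounding). It was called lower with median centring, quantile normalization, array weights, averaged probe sets, dim probe sets left out, or the 2 groups alone.

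Stx3, a syntaxin known from the apical membrane of epithelia and from ribbon synapses, was the member that was lower at day 7 than day 0. It read 10.06, 11.18 and 10.65 at day 0, 10.01, 10.29, 10.10 and 10.49 at day 2, 7.88, 8.37 and 8.13 at day 3, 4.95, 5.69 and 5.98 at day 4 and 5.53, 5.44 and 5.53 at day 7. The fall took place in both steps between day 2 and day 4, by 4.28-fold from day 2 to day 3 (log2 -2.10, adjusted p = 0.00029) and by 6.002-fold from day 3 to day 4 (log2 -2.59, adjusted p = 0.00041). The day 4 and day 7 arrays overlapped (log2 difference -0.04 ± 0.29 (SE), adjusted p = 1). From day 0 to day 7 the fall was 35.1-fold (log2 difference -5.13 ± 0.29 (SE), adjusted p = 2.2e-08). The second brightest probe set ran alongside, from a mean of 8.88 at day 0 to 2.55 at day 7.

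For 5 neuronal members set against a widely expressed relative, the difference within each array was followed from day 4 to day 7. Snap25 less Snap23 changed by 4.44 log2 units, Syp less Sypl by 5.29, Vamp2 less Vamp3 by 3.31, Stx1a less Stx4a by 2.90 and Napb less Napa by 2.37. In each pair the 3 day 7 arrays lay above the 3 day 4 arrays. The exact permutation test, two-sided, gave p = 0.10 for each of the 5 pairs (adjusted 0.10), which is the smallest p that 3 against 3 arrays allow.

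**Figure D3:**
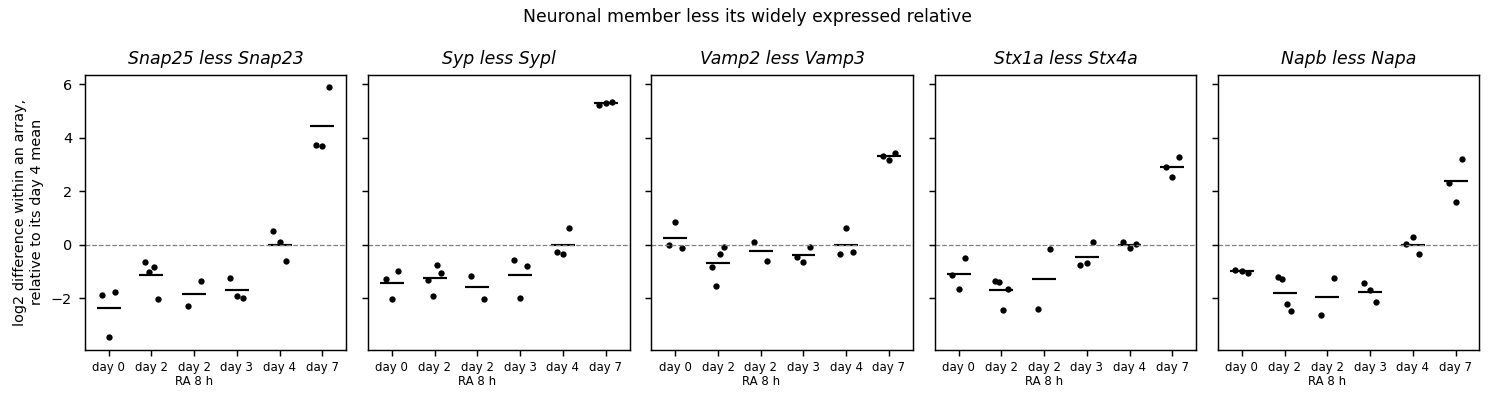
Within-array log2 difference between a neuronal member and its widely expressed relative, relative to the day 4 mean of that difference, with points for arrays and lines for stage means. At day 7 the 5 differences lie 2.37 to 5.29 log2 units above day 4 on average, and the means of the earlier stages lie near day 4 or below it.

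The Rab3 GTPases, which mark vesicles for docking, all rose. Rab3c went from under the background level on the day 4 arrays (2.24, 3.68 and 2.24) to 10.40, 10.05 and 10.63 at day 7, at least 82.2-fold (log2 difference 7.64 ± 0.29 (SE), adjusted p = 6.5e-10), the largest log2 difference among the members. Rab3a, the main Rab3 of brain synapses, read 5.62, 6.57 and 5.95 at day 4 and 10.75, 10.73 and 10.70 at day 7 (25.5-fold, log2 difference 4.67 ± 0.26 (SE), adjusted p = 3.2e-08). Its day 7 arrays lay within 0.05 of each other. Rab3b read 6.28, 6.12 and 6.08 at day 4 and 8.11, 7.96 and 8.54 at day 7 (4.13-fold, log2 difference 2.04 ± 0.33 (SE), adjusted p = 0.00055).

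Both complexins rose, and the large scaffold proteins of the active zone were read less clearly. Cplx1 read 4.09, 4.01 and 5.97 at day 4 and 10.26, 10.07 and 10.67 at day 7 (49.99-fold, log2 difference 5.64 ± 0.75 (SE), adjusted p = 0.00011). Cplx2 read 2.79, 3.58 and 2.50 at day 0, 3.03, 3.29, 5.50 and 5.75 at day 2, 5.75, 6.34 and 7.19 at day 4 and 10.48, 10.79 and 9.49 at day 7 (14.2-fold, log2 difference 3.83 ± 0.71 (SE), adjusted p = 0.0016). The 2 pairs of day 2 arrays differed for Cplx2, with replicates 1 and 2 under the background level and replicates 3 and 4 above it. From day 0, where it was under the background level, Cplx2 rose at least 76.4-fold (adjusted p = 3.3e-06).

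Piccolo (Pclo), a scaffold of the active zone, read 4.77, 5.80 and 4.34 at day 4 and 7.88, 7.92 and 7.15 at day 7 (log2 difference 2.68 ± 0.57 (SE), adjusted p = 0.0042). Rims1, which links Rab3 to calcium channels, read 6.05, 4.64 and 3.55 at day 4 and 7.27, 7.13 and 7.95 at day 7 (log2 difference 2.70 ± 0.63 (SE), adjusted p = 0.0075). The Pclo call ended without day 4 replicate 1 or 3 and without day 7 replicate 3 or 4 (adjusted p up to 0.021). The Rims1 call ended without day 4 replicate 2 or 3 and without any one of the day 7 arrays (adjusted p up to 0.033). The second Rims1 probe set read 2.24, 4.12 and 2.81 at day 4, with 2 of these arrays under the background level, and 6.92, 6.23 and 7.73 at day 7 (adjusted p = 0.00047). Unc13a, the priming factor Munc13-1, read 3.06, 2.97 and 2.48 at day 4 and 3.44, 3.33 and 4.44 at day 7 (log2 difference 0.90 ± 0.24 (SE), adjusted p = 0.016). A single array was above the background level, so no fold is given, and without day 7 replicate 4 its log2 difference of 1.10 passed (adjusted p = 0.0067).

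Rims2 did not pass from day 4 to day 7, with 7.96, 8.51 and 7.60 and then 8.41, 8.41 and 7.47 (log2 difference 0.07 ± 0.35 (SE), adjusted p = 1), and was higher at day 7 than at day 0 by 2.75-fold (adjusted p = 0.0057). Its second brightest probe set read 6.84, 8.21 and 6.43 at day 4 and 9.09, 9.01 and 8.10 at day 7 (log2 difference 1.58 ± 0.51 (SE), adjusted p = 0.045). Bassoon (Bsn), the partner scaffold of piccolo, had probe sets that disagreed. The brightest read 5.45, 5.45 and 5.50 at day 4 and 5.97, 5.52 and 6.01 at day 7 (log2 difference 0.37 ± 0.17 (SE), adjusted p = 0.2), and its day 0 arrays read 5.52, 5.80 and 5.88. Another probe set of Bsn stood at 2.24 on all 15 earlier arrays and read 4.21, 5.34 and 5.002 at day 7, at least 1.80-fold (log2 difference 2.61 ± 0.19 (SE), adjusted p = 4.5e-07). The files do not say which transcripts either one reads.

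**Figure D4:**
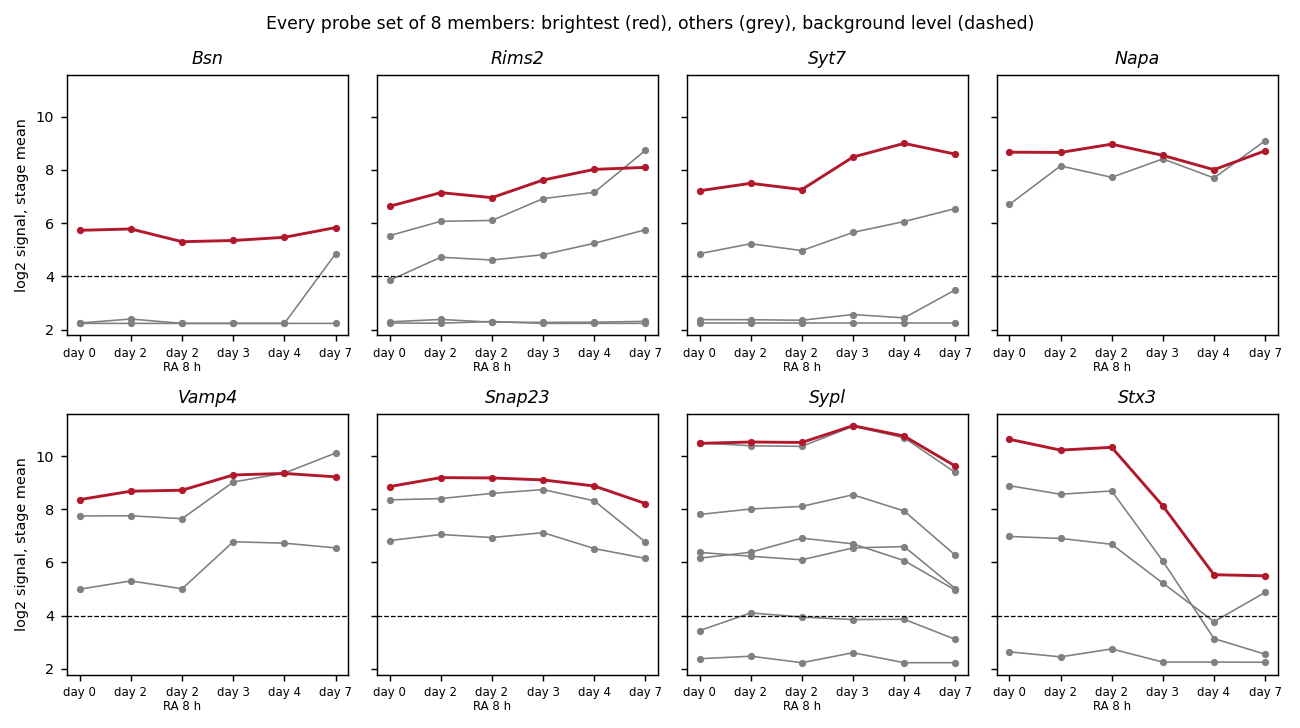
Stage means of the log2 signal of every probe set of 8 members, with the brightest in red, the others in grey and a dashed line at the background level of 4. A single grey probe set of Bsn leaves the floor at day 7 to reach a mean of 4.85, 6 of the 7 probe sets of Sypl are lower at day 7 than at day 4, and the 3 brighter ones of Stx3 drop between day 2 and day 4.

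The 4 genes of vesicle retrieval all rose. Snap91 (AP180), a clathrin assembly protein of synapses, read 5.77, 6.81 and 6.15 at day 4 and 10.54, 10.38 and 11.30 at day 7 (22.6-fold, log2 difference 4.50 ± 0.33 (SE), adjusted p = 5e-07). Amph, amphiphysin, read 6.21, 5.32 and 6.31 at day 0, 4.52, 4.56 and 5.54 at day 4 and 8.11, 7.76 and 8.91 at day 7 (10.4-fold, log2 difference 3.38 ± 0.44 (SE), adjusted p = 9.4e-05). Dnm1, the neuronal dynamin, rose from 7.14, 6.89 and 6.70 to 9.02, 8.96 and 9.59 (4.86-fold, log2 difference 2.28 ± 0.41 (SE), adjusted p = 0.0012). Synj1, the phosphoinositide phosphatase that strips clathrin coats, rose from 8.24, 8.41 and 8.83 to 10.15, 10.10 and 10.39 (3.29-fold, log2 difference 1.72 ± 0.26 (SE), adjusted p = 0.00038). All 4 were above the background level on every array before day 7.

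Of the genes that take SNARE complexes apart, Napb (beta-SNAP), the neuronal adaptor, rose from 7.91, 8.10 and 8.62 to 11.28, 10.74 and 11.86 (8.48-fold, log2 difference 3.08 ± 0.27 (SE), adjusted p = 2.9e-06). Napa (alpha-SNAP), the general adaptor, did not pass, with 7.68, 7.60 and 8.75 at day 4 and 8.76, 8.94 and 8.46 at day 7 (log2 difference 0.71 ± 0.39 (SE), adjusted p = 0.29). The other Napa probe set went from 7.13, 7.67 and 8.29 to 9.18, 9.13 and 8.99 (log2 difference 1.40). Its day 7 arrays lay above all earlier ones, and it was not called either, so the 2 probe sets differ. Nsf, the ATPase of all cells, read 10.17, 9.07 and 9.80 at day 0, 8.62, 8.96 and 9.21 at day 4 and 10.01, 10.07 and 10.16 at day 7. It was called higher at day 7 than day 4 (2.22-fold, log2 difference 1.15 ± 0.22 (SE), adjusted p = 0.002), not so against day 0 (adjusted p = 0.23), and without day 4 replicate 1 the first call ended (adjusted p = 0.011). Nrxn3, a presynaptic neurexin that binds neuroligins across the cleft, read 4.19, 5.74 and 3.63 at day 4 and 6.96, 7.45 and 9.59 at day 7 (11.2-fold, log2 difference 3.48 ± 0.66 (SE), adjusted p = 0.0018). Replicate 5 was more than 2 log2 units above the other day 7 arrays.

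**Figure D5:**
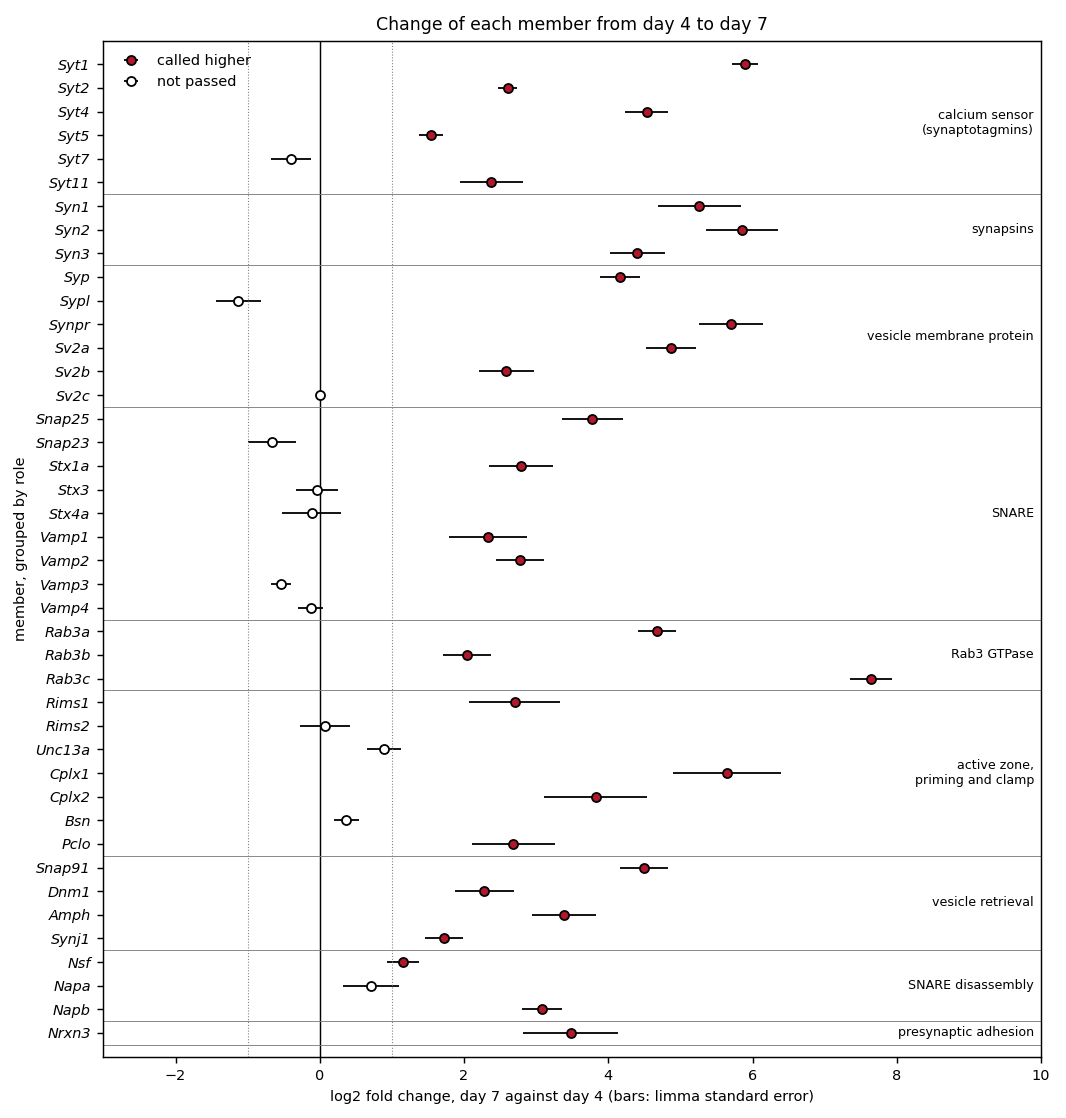
Log2 fold change of each of the 42 members from day 4 to day 7 on its brightest probe set, grouped by role, with bars for limma's standard error, filled points for the 30 called higher and open points for the 12 not passed. Dotted lines mark 2-fold either way, and Rab3c lies furthest to the right at 7.64.

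Over all probe sets of the members, 53 of 121 were called higher from day 4 to day 7 and 4 lower. Over the whole array, 6.52% of probe sets were called higher and 4.98% lower. The 4 lower ones belong to Sypl and Snap23, and no gene had probe sets called in both directions. Of the 42 genes, 9 have a single probe set. On their brightest probe set, 24 members lay at or above the background level on all 18 arrays. Another 5 lay under it on all earlier arrays and reached it at day 7 on 2 or more arrays, namely Syt1, Syt5, Syn3, Sv2b and Rab3c.

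Before day 7 fewer members were called. Counts at an unadjusted p under 0.05 and counts in alternative fits have no share of all genes beside them, as none was counted. After 8 h of RA no member was called by limma, with 2 higher and 1 lower at an unadjusted p under 0.05, where 0.308% of all genes were called higher and 0.0605% lower. No member was called against either pair of day 2 arrays alone. At an unadjusted p under 0.05 there were 7 members against replicates 1 and 2 and 1 against replicates 3 and 4. From day 0 to day 2, 2 of the 42 members rose, Syt11 and Sv2a (1.67% of all genes higher, 2.15% lower). At an unadjusted p under 0.05, 5 members were higher and 4 lower. Syt11 went from 5.50, 5.61 and 7.51 to 8.63, 8.31, 9.01 and 9.30 (log2 difference 2.60 ± 0.41 (SE), adjusted p = 0.002), and Sv2a by at least 2.67-fold (log2 difference 2.05 ± 0.32 (SE), adjusted p = 0.002). Both were called with day 2 replicates 3 and 4 alone and neither with replicates 1 and 2 alone. The latter fit left 12 members at an unadjusted p under 0.05. Without day 0 replicate 2 only Sv2a was called. Raising low values to the background level left only Syt11 called.

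From day 2 to day 3, 1 member rose and 3 fell (3.40% of all genes higher, 3.22% lower). At an unadjusted p under 0.05, 9 members were higher and 7 lower. Synj1 rose by 2.64-fold (log2 1.40, adjusted p = 0.0028), a call that ended without day 2 replicate 1 and without day 3 replicate 1 or 3. Stx3 fell as given above, Sv2a fell at least 2.67-fold (adjusted p = 0.0011), and Syt4 read 5.84, 5.77, 5.99 and 5.98 at day 2 and 4.78, 4.37 and 3.60 at day 3 (log2 -1.65, adjusted p = 0.0022). With values raised to the background level Sv2a was not called in this step. Syt11 read 6.85, 6.88 and 7.31 at day 3, below all of its day 2 arrays, and did not pass (log2 difference -1.80 ± 0.41 (SE), adjusted p = 0.015). With the replicate number as a block, which pairs these arrays, the count of calls from day 2 to day 3 was 2 in the fit of all arrays (Stx3, Synj1) and 0 in a limma fit of the 2 stages, where 16 members had an unadjusted p under 0.05. With either pair of day 2 arrays alone the count was 3, and Stx3 was called with both. The other calls were Cplx2 and Synj1 with replicates 1 and 2, and Stx4a and Sv2a with replicates 3 and 4. Syt4 was called with neither pair.

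From day 3 to day 4, Syt2 and Syt4 rose and Stx3 fell (0.506% of all genes higher, 0.715% lower). At an unadjusted p under 0.05, 8 members were higher and 2 lower. With values raised to the background level, and with averaged probe sets, Stx3 and Syt4 were called and Syt2 was not. Syt4 went from 4.78, 4.37 and 3.60 to 6.47, 6.47 and 6.78 (4.997-fold, log2 difference 2.32 ± 0.30 (SE), adjusted p = 0.0011). On this brightest probe set its day 4 arrays lay above all earlier ones after the dip at day 3. The other Syt4 probe set read 4.27, 4.63 and 3.41 at day 3 and 5.56, 6.53 and 5.56 at day 4. Both of these stages overlapped its day 2 arrays (4.26 to 5.82). With the replicate block the same 3 genes were called in the fit of all arrays and 0 in a limma fit of the 2 stages, where 9 members had an unadjusted p under 0.05. For 7 members the day 4 mean was the lowest of all stages (Cplx1, Syn1, Amph, Sv2a, Vamp1, Nsf and Napa), and none of these passed from day 3 to day 4.

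Other genes of the release machinery were read from a list of 58, of which 54 were measured and none is a member. From day 4 to day 7, 27 of these rose and 27 did not pass (8.81% of all genes higher), with a median log2 difference of 1.959. None was called lower by limma (1 at an unadjusted p under 0.05). Slc17a6, the vesicular glutamate transporter VGLUT2, rose from 2.30, 2.25 and 2.25 to 10.23, 9.55 and 10.14 (at least 62.9-fold, adjusted p = 2e-13). Slc18a3, the vesicular acetylcholine transporter, rose from 2.24, 3.51 and 2.36 to 6.40, 6.85 and 7.86 (at least 8.19-fold, adjusted p = 8.2e-07). Slc17a7, the vesicular glutamate transporter VGLUT1, and Slc32a1, the transporter VGAT, had day 4 and day 7 means under the background level. Both were named after their values were seen. Sncg, gamma-synuclein, rose from 3.103, 5.19 and 3.19, with 2 of these arrays under the background level, to 12.11, 12.46 and 10.84 (adjusted p = 1.4e-07). Apba1 (Mint1), an adaptor of the release site, rose at least 26.6-fold. Nlgn3, a neuroligin, rose at least 29.8-fold.

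A second list held 38 genes of membrane fusion and coats in all cells, with 37 measured. Of these, 6 rose, 2 fell and 29 did not pass, with a median log2 difference of 0.64. The share of all genes called was 8.81% higher and 6.58% lower, and their median log2 difference was 0.00. The 6 that rose are a larger share of the list than among all genes, and the 2 that fell are no larger a share. Cltb, the clathrin light chain b, rose 7.07-fold (adjusted p = 0.00013) and Scamp1, a carrier membrane protein, 3.84-fold (adjusted p = 3.1e-05). Vps45, a Sec1/Munc18 protein of endosomes, rose 3.82-fold (adjusted p = 0.0044). Syngr2, the synaptogyrin of non-neuronal cells, fell (log2 difference -2.05, adjusted p = 0.00011). The other gene that fell was Stxbp3 (Munc18c), the partner of Stx4a (log2 difference -1.49, adjusted p = 0.0019).

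Of 9 genes of the REST repressor complex, 5 fell from day 4 to day 7 and 4 did not pass (6.58% of all genes lower). Against day 0, 3 of the 9 were lower at day 7 and 1 was higher (13.9% of all genes lower, 14.3% higher). Rest itself read 13.41, 13.46 and 13.20 at day 0, 12.95, 12.72, 12.68 and 12.22 at day 2, 11.90, 11.82 and 11.63 at day 3, 11.41, 11.48 and 11.30 at day 4 and 9.79, 9.91 and 10.27 at day 7. Every day 7 array was below every earlier array, and the fall was 2.65-fold from day 4 (log2 difference -1.41 ± 0.16 (SE), adjusted p = 3.1e-05) and 10.3-fold from day 0. Its signal remained more than 5 log2 units above the background level at day 7. Its corepressors Rcor1 and Rcor2 fell 2.50-fold and 2.86-fold. Their relative Rcor3 did not fall, with 9.06, 9.29 and 8.47 at day 4 and 9.09, 8.83 and 9.43 at day 7.

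Marker lists of the cell types that whole embryoid bodies could hold moved as follows from day 4 to day 7. Of all genes, 8.81% were called higher and 6.58% lower in that step. Of 12 pan-neuronal markers 9 rose, and their mean signal per array went from between 8.78 and 9.22 at day 4 to between 12.05 and 12.14 at day 7. Of 7 motor neuron markers 3 rose. Of 7 pluripotency markers 1 fell, and 6 were lower at day 7 than day 0 (13.9% of all genes lower). Of 8 neural progenitor markers 4 fell and 1 rose. Of 7 neuroendocrine markers 5 rose, and their mean signal went from between 6.43 and 6.56 to between 9.87 and 10.1. Neurons also make several of these. They include Chgb and Scg2, granins of dense-core granules, with rises of 89.3-fold and at least 47.5-fold. Of 9 glial markers 3 rose, and their mean signal went from between 3.98 and 4.34 to between 5.98 and 7.19. Sox10, a factor of oligodendrocyte precursors and neural crest, read 6.88, 9.04 and 11.05 at day 7 and was under the background level at day 4. Aldh1l1, another glial marker, read 5.50, 3.39 and 4.45 at day 4 and 9.49, 9.77 and 9.37 at day 7. Aqp4 read 4.11, 2.32 and 2.32 at day 4 and 5.72, 4.79 and 4.00 at day 7. Gfap and Mog were under the background level on every day 4 and day 7 array. Of 7 fibroblast and mesenchyme markers none was called by limma (0 at an unadjusted p under 0.05), and of 6 endoderm markers 1 rose, both lists with a mean signal under the background level at day 4 and day 7. The part of these cell types in the members' changes was not tested.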

How the data were processed

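Expression was measured on 18 Affymetrix mouse genome arrays, 1 per sample. Per the labels and the study's methods, the authors amplified total RNA, normalized all arrays together with GCRMA and deposited log2 values per probe set. The versions of their tools are not given in the sources used here. The deposited values run from 2.24 to 14.66, and 55.2% to 56.9% of probe sets lay under 4 on each array. GCRMA compresses values near its floor, so a fold of a faint gene is uncertain. The number of arrays limits the precision.

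Of 45101 probe sets, 64 controls were left out and 45037 tested. Platform annotation gave 1 symbol to 34945, several to 932 and none to 9160. The fit was limma 3.58.1 in R 4.3.3 (lmFit, eBayes; 6 stage means, 12 residual and 0.515 prior degrees of freedom), checked on simulated arrays. Standard errors share a spread over all 18 arrays, so those of genes that sit on the floor at some stages can be too small. Figures were drawn with Python 3.11.15 and matplotlib 3.10.9.

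The 42 members and the gene lists were chosen with earlier results of these data known. Named were all called members, members whose probe sets disagreed, Rest, and up to 4 called genes a list, with Slc18a3 and Stxbp3 in addition. Array values were planned for up to 3 of the largest changes a role and for members that fell or did not pass. They were given for further called members as well. Replicate numbers paired day 2 with day 3 (correlation of deviations 0.48, 0.35 and 0.48) and day 3 with day 4 (0.64, 0.42 and 0.75). They did not pair day 0 with day 2 (0.21, -0.20 and -0.13) or RA with day 2 (-0.22 and -0.45), and day 4 and day 7 share only number 3. Alternatives were the 2 groups alone, the replicate block, trend and robust moderation, array weights, a filter on dim probe sets (fewer than 2 arrays at the background level), values raised to that level, quantile normalization, median centring, averaged probe sets, suffix probe sets left out, an adjusted p under 0.05, any probe set passing, and each array left out. The 2 pairs of day 2 arrays were chosen after the data were seen.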

Additional observations from a re-analysis of the deposited data

Results flagged for a closer look

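The highest or lowest of the 4 day 2 arrays stood apart from the other 3 for 5 of the 42 members by Dixon's test, which flags about 1 in 20 groups by chance. Snap25 read 7.59 on replicate 4 and 8.08 to 8.12 on the others. The remaining 4 lay near the lowest values of the array, where such gaps are small: Syt2 read 2.35 on replicate 1 (2.31 on the others), Sv2b 2.45 on replicate 2 (2.24 to 2.27), Rab3c 2.235 on replicate 4 (2.238 on the others) and Unc13a 2.28 on replicate 2 (2.48 on the others).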

How the results depend on the processing

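The 30 rises from day 4 to day 7 came to 27 to 29 when single arrays were left out, and 26 held in every such fit, the exceptions being Nsf, Pclo, Rims1 and Vamp1. With only the arrays of the compared groups, limma called 17 higher from day 4 and 18 from day 0. Of the 30, 14 were called in every alternative that held the gene (Rab3a, Rab3b, Rab3c, Snap25, Snap91, Stx1a, Sv2a, Syn1, Syn2, Synpr, Syp, Syt1, Syt4 and Vamp2), where Syn1 has only a suffix probe set and so no value in the fit without these. The replicate block in the fit of all arrays left 21 rises. The day 4 and day 7 arrays share a single number, so the block does not pair them. The count lower at day 7 than day 4 was 1 (Sypl) with averaged probe sets, with array weights and at an adjusted p under 0.05, and 2 (Sypl, Snap23) when any probe set sufficed. The count lower at day 7 than day 0 was 2 with averaged probe sets, dim probe sets left out, median centring, quantile normalization, the 2 groups alone, array weights or an adjusted p under 0.05, the second gene being Stx4a each time, and 3 when any probe set sufficed. From day 2 to day 3, where the number pairs the arrays, the block gave 2 calls over all arrays and 0 in the 2 groups; the 2 groups without it gave 1, and array weights 7. From day 3 to day 4 the block in the 2 groups gave 0 calls, as did the 2 groups without it. From day 0 to day 2 there was 1 call with values raised to the background level and 1 with suffix probe sets left out, 0 in the 2 groups alone, 4 at an adjusted p under 0.05, and 0 with day 2 replicates 1 and 2 only, an alternative chosen after seeing the data. In the fits that gave 0 calls, 7 to 16 members had an unadjusted p under 0.05. The share of all genes at that cut, or called in the alternative fits, was not counted. The causes were not tested.

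Leaving out single arrays gave 29 to 31 members higher and 1 to 1 lower at day 7 than day 0, 0 to 0 lower at day 7 than day 4, 3 to 3 calls from day 3 to day 4, 3 to 5 from day 2 to day 3, 1 to 2 from day 0 to day 2 and 0 to 0 after RA. The pair differences ranged over 1.962 to 2.76 for Napb less Napa, 3.71 to 4.81 for Snap25 less Snap23, 2.71 to 3.08 for Stx1a less Stx4a, 5.12 to 5.599 for Syp less Sypl and 3.14 to 3.61 for Vamp2 less Vamp3. With averaged probe sets Syp less Sypl came to 3.16 and Napb less Napa to 1.31. Signs turned for members that were not called, with averaged probe sets for Vamp4 (0.15) and Syt7 (0.28), under the block for Vamp4 (0.057) and Sv2c (-0.068), and with median centring for Sv2c (-0.089). Differences in genes near the background level are limited by the floor of the deposited values.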
